A study of Mus musculus with 108 samples.

Results

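The 42 genes described here encode the machinery of the cell cycle and of DNA replication, and they were chosen by gene symbol from the 23337 genes counted in a study of the mouse hippocampus. All 42 were found and all 42 had enough reads to be tested, among 14737 tested genes. They were sorted by role into 12 replication genes, 5 genes that control entry into DNA synthesis (the G1/S step) and 25 genes of mitosis. RNA was sequenced from 15 libraries of whole hippocampal tissue, 3 independent replicates at each of postnatal days 0, 7, 14, 21 and 28 (P0 to P28), and from 93 single neurons of postnatal weeks 3 to 4. The neurons had been typed by electrical recording as 19 cholecystokinin (CCK) and 14 parvalbumin (PV) interneurons and 25 pyramidal cells of area CA1, and, in the subiculum, as pyramidal cells with burst firing (21) or regular firing (14). The labels give no strain, genotype or treatment and name no animal behind a library, so p-values measure the spread between these tissue pieces.

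A dividing cell passes from G1, in which D-type and E-type cyclins lead it to the start of DNA synthesis, through S phase, in which the genome is copied, to mitosis. The MCM helicase opens DNA at replication origins, a sliding clamp holds the polymerases on the template and enzymes of nucleotide synthesis supply the building blocks, while cyclin B with CDK1, the Aurora and Polo kinases and the kinetochore drive and monitor chromosome segregation. In the rodent hippocampus most pyramidal neurons are born before birth, granule cells of the dentate gyrus are produced largely in the first postnatal weeks, and neural stem cells and oligodendrocyte precursors go on dividing afterwards.

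Between 2341677 and 13262818 reads per tissue library were counted in genes, the lowest in P0 replicate 1. No member had 0 reads in any tissue library, but the lowest count of a member was 2 reads (Kif23 in P28 replicate 1). Levels are counts per 1000000 gene reads of a library (CPM), and differences between ages come from edgeR's quasi-likelihood test over all 15 libraries, with p-values adjusted over all tested genes by the method of Benjamini and Hochberg and called under 0.05. In bulk tissue, fewer dividing cells, less RNA per dividing cell and a larger share of RNA from other cells cannot be told apart. The tissue label was checked against 6 genes of mature neurons, all of which rose between P0 and P28, from a summed level of 1603 to 1830 CPM at P0 to 6551 to 6808 CPM at P28.

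At P28 mitosis genes were at the lowest share of their P0 level, replication genes at a higher one and G1/S genes at the highest. The 25 mitosis genes summed to 515, 529 and 419 CPM in the 3 P0 libraries and to 42.4, 43.2 and 47.4 CPM at P28, so that 9.09% of the mean P0 level was measured at P28. The 12 replication genes summed to 445, 453 and 431 CPM at P0 and to 121.4, 117.1 and 123.2 CPM at P28, which was 27.2% of P0. Groups were far apart in both sums, and P0 replicate 3 was the lowest of its age in both. The 5 G1/S genes summed to 348 ± 17.7 CPM at P0 (SD, n = 3), 413 ± 15.5 at P7, 216.3 to 233.4 at P14, 166 ± 5.51 at P21 and 196 ± 1.90 at P28.

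**Figure D1:**
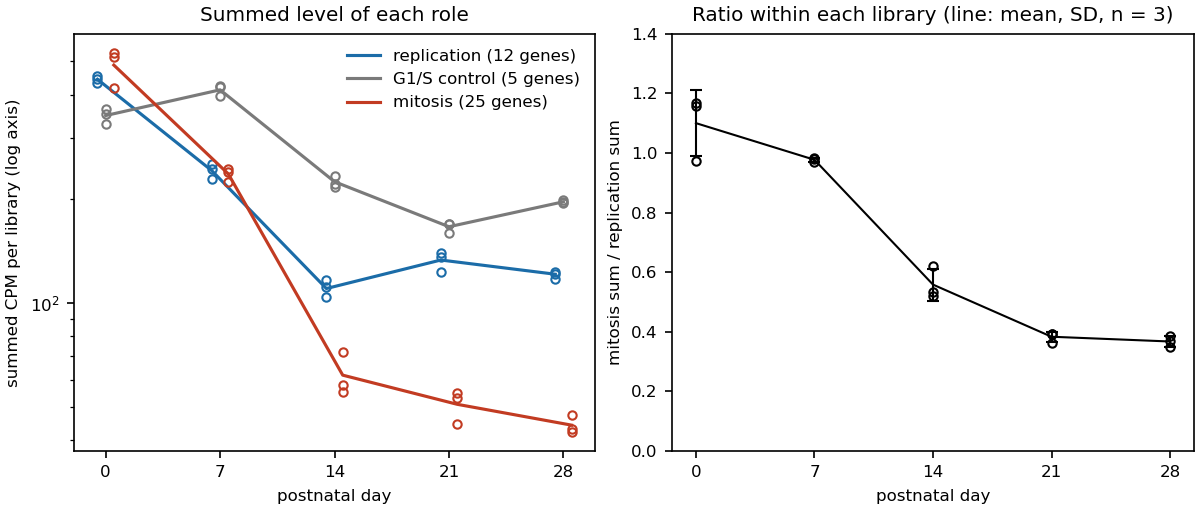
Summed CPM of the members of each role in each tissue library by postnatal day on a log axis (left; points are libraries, offset sideways by role, lines join the means), and the mitosis sum divided by the replication sum in the same library (right; points are libraries, bars are the SD, n = 3). The ratio was 1.10 at P0 and 0.367 at P28.

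Promoters of members that declined by different amounts are shown next, because the roles differ in short sequence words near the transcription start. In textbook accounts E2F factors bind the word TTTCCCGC and its close relatives at S-phase genes, while the cell cycle homology region (CHR) and CCAAT boxes are typical of genes expressed before and during mitosis. RefSeq promoters (build GRCm38.p6) of 300 bases, from 250 bases before the start, were found for 33 of the 42 members. Searched on both strands were the 4 E2F words TTTCCCGC, TTTCGCGC, TTTGCCGC and TTTGGCGC, the CHR words TTTGAA and TTCGAA, and the word CCAAT. An E2F word was present in 5 of 10 replication genes (50%) and in 1 of 21 mitosis genes (4.76%), against 704 of 27025 genes of the whole promoter table (2.60%). A CHR word was present in 2 of 10 replication genes (20%) and 17 of 21 mitosis genes (81%), against 21.7% of all genes. CCAAT was common in both roles, with 8 of 10 replication genes (80%) and 19 of 21 mitosis genes (90.5%), against 41.1% of all genes. Neither G1/S promoter in the table, those of Ccne1 and E2f1, held any of the words searched. The E2f1 window lies inside the gene as annotated by GENCODE, so sequence before its outermost start was not searched. Other forms of the E2F word were not searched either. A match is a description of the letters and shows no binding.

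The stretches below run 5′ to 3′ on the gene's strand from 120 bases before the start to 30 bases into the transcript, with the searched words in capitals on either strand. They are the 3 replication promoters with an E2F word within this stretch (Mcm6, Mcm3 and Mcm7, subunits of the MCM helicase), the 3 mitosis promoters with both a CHR word and a CCAAT word within it whose genes had the largest falls (Top2a, Kif23 and Bub1), and Ccne1, the member that rose, with no word. All 7 lie on the minus strand.
Mcm6 (chr1:128359676-128359825): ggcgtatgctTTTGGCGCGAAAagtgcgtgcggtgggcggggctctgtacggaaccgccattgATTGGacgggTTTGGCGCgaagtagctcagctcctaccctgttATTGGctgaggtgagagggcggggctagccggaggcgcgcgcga
Mcm3 (chr1:20820283-20820432): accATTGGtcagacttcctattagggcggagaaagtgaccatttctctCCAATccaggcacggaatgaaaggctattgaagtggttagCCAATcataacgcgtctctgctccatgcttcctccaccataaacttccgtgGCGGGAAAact
Mcm7 (chr5:138171854-138172003): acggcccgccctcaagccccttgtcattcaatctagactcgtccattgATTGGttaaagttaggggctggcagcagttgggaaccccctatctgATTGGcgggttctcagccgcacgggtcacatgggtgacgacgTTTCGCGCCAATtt
Top2a (chr11:99024160-99024309): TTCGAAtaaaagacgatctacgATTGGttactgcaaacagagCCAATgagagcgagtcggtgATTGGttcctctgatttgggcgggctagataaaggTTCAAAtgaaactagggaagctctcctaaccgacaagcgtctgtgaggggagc
Kif23 (chr9:61946770-61946919): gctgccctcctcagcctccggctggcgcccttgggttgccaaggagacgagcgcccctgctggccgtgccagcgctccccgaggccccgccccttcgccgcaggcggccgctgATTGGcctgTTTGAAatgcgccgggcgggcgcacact
Bub1 (chr2:127831830-127831979): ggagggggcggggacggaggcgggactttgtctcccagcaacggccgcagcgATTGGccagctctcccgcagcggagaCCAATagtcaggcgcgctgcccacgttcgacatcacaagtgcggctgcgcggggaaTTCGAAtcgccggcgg
Ccne1 (chr7:38107461-38107610): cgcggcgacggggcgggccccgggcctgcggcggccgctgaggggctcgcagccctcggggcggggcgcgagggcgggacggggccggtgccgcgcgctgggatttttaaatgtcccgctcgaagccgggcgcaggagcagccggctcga
In Mcm6 the first 2 E2F words overlap and stand as 1 block of capitals, and in Mcm7 the E2F word shares a base with the CCAAT word that follows it. Mcm7 has another RefSeq start with no E2F word. The promoters shown were picked for their words, which did not follow the size of the fall. Bub1b and Ccnb1, with log2 fold changes of -4.31 and -4.08, had no CHR word in this stretch. Rrm2 and Tyms, with -3.06 and -2.86, had no E2F word.

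Over the whole period 39 of 42 members fell between P0 and P28 and 1 rose, where 31.3% of all tested genes fell and 32.9% rose. All 12 replication genes fell, with a median log2 fold change of -1.87, and all 25 mitosis genes fell, with a median of -3.27. The median over all tested genes was 0.00. Of the G1/S genes, Ccnd2 and E2f1 fell and Ccne1 rose. In 40 members every P28 library was below every P0 library, which held for 39.8% of tested genes. All 42 members differed between ages in the test over the 5 ages, as did 76.4% of tested genes.

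Rrm2 and Tyms, enzymes of nucleotide synthesis, had the largest falls among replication genes. Rrm2, the small subunit of ribonucleotide reductase that limits its activity in S phase, measured 43.1, 47.7 and 36.7 CPM at P0, 19.1, 20.7 and 17.9 at P7, 5.33, 6.002 and 3.70 at P14, 5.43, 5.13 and 2.04 at P21, and 7.04, 3.54 and 3.71 at P28. The ages P0, P7 and P14 did not overlap, and the 3 later ages did. The log2 fold change of Rrm2 from P0 to P28 was -3.06 (SE 0.27, edgeR adjusted p = 6.63e-09). Its partner Rrm1, the large subunit, fell less, by 1.55 on the log2 scale (SE 0.14), from 72.7 ± 9.54 to 22.3 ± 2.34 CPM (SD, n = 3). Tyms, which makes thymidylate for DNA, fell by 2.86 (SE 0.21), and Cdc6, which loads the MCM helicase onto origins, fell by 2.76 (SE 0.47) from a mean of 5.46 CPM. A pseudogene of Tyms is counted separately in the table, so its reads could be split between them.

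The 6 subunits of the MCM helicase work as 1 ring, yet their RNAs declined by different amounts. Mcm3 fell by 2.52 on the log2 scale (SE 0.28), Mcm5 by 2.12 (SE 0.19), Mcm2 by 1.87 (SE 0.18), Mcm7 by 1.86 (SE 0.17), Mcm6 by 1.58 (SE 0.13) and Mcm4 by 1.53 (SE 0.13). At P28, 15.8% of the mean P0 level of Mcm3 was measured and 30.7% of that of Mcm4. The differences between subunits were not tested. Exons of Mcm7 overlap those of Cops6, Ap4m1, Mir25 and Mir93 over 12.6% of their length, and whether the libraries kept the strand is not stated in the sources used here.

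Pcna, the sliding clamp of the replicative polymerases, changed least among replication genes. It measured 20.5, 29.3 and 29.5 CPM at P0, 23.3, 23.2 and 22.3 at P7, 18.3, 17.6 and 15.5 at P14, 19.1, 18.8 and 16.9 at P21, and 16.3, 17.5 and 16.8 at P28. P0 and P7 overlapped, as did P14, P21 and P28, and 63.8% of the P0 level was measured at P28 (log2 fold change -0.54, SE 0.13, edgeR adjusted p = 0.00164). The mouse genome holds Pcna pseudogenes, which could share reads with it. Gins2, a subunit of the GINS complex of the active helicase, fell by 0.89 (SE 0.31, edgeR adjusted p = 0.0162), but 67.3% of its exon length overlaps Gse1 on the other strand, and its adjusted p was 0.204 without P0 replicate 3 and 0.0750 without P28 replicate 2.

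The largest falls were in mitosis. Top2a, the topoisomerase that untangles sister chromatids, measured 66.2, 68.1 and 44.7 CPM at P0, 25.9, 30.3 and 22.1 at P7, 3.18, 5.57 and 4.51 at P14, 1.89, 2.56 and 2.77 at P21, and 3.32, 1.77 and 2.20 at P28. The first 3 ages were apart from each other and the last 3 lay close together, and the log2 fold change from P0 to P28 was -4.51 (SE 0.25, edgeR adjusted p = 8.28e-12). Next came Bub1b, a kinase-like protein of the spindle checkpoint, which fell by 4.31 (SE 0.27), Kif23, a motor of the central spindle, which fell by 4.18 (SE 0.43), and Ccnb1, the mitotic cyclin B1, which fell by 4.08 (SE 0.30). Their P28 means were 0.684, 0.431 and 1.25 CPM, which rest on few reads.

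Mki67, which encodes the proliferation marker Ki-67, measured 35.02, 43.5 and 32.0 CPM at P0, 16.7, 22.6 and 22.5 at P7, 4.61, 6.22 and 5.47 at P14, 2.34, 4.05 and 2.04 at P21, and 3.98, 2.66 and 2.88 at P28. The first 3 ages did not overlap and every P28 library was below every P14 library, with a log2 fold change of -3.42 from P0 to P28 (SE 0.23, edgeR adjusted p = 1.52e-10). Cdk1, the kinase that drives entry into mitosis, fell by 3.55 (SE 0.32) and its partner Ccna2, cyclin A2, fell by 3.77 (SE 0.25). The chromosomal passenger complex, which corrects the attachment of chromosomes to the spindle, was represented by Aurkb (fell by 3.74, SE 0.34), Cdca8 (fell by 2.93, SE 0.24) and Birc5 (fell by 2.47, SE 0.36). Smaller falls were those of Cenpa, the histone variant of centromeres, by 1.55 (SE 0.27), of Aurka, a centrosomal kinase, by 1.86 (SE 0.22), and of Cenpe, a kinetochore motor, by 1.93 (SE 0.30). Foxm1, a transcription factor of mitosis genes, fell by 2.70 (SE 0.29). Exons of Ube2c, Ccna2 and Prc1 overlap a gene on the other strand over 22.8%, 12.5% and 11.1% of their length, and Ccnb1 and Ccnb2 have named pseudogenes, so these values are less certain.

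Set per kilobase of exon, the mean P0 levels of the members ran from 1.04 CPM per kilobase for Cdc6 to 29.4 for Ccnd2, with Mcm6 at 17.3 and Rrm2 at 15.3. At P28 they ran from 0.0545 for Kif23 to 13.6 for Ccnd2, followed by Ccne1 at 9.10, Pcna at 7.03 and Ccnd1 at 6.16. Thus 3 of the 4 highest members per length at P28 were G1/S cyclins. Exon lengths are those of all GENCODE transcripts of a gene joined, which need not be the transcripts used here.

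**Figure D2:**
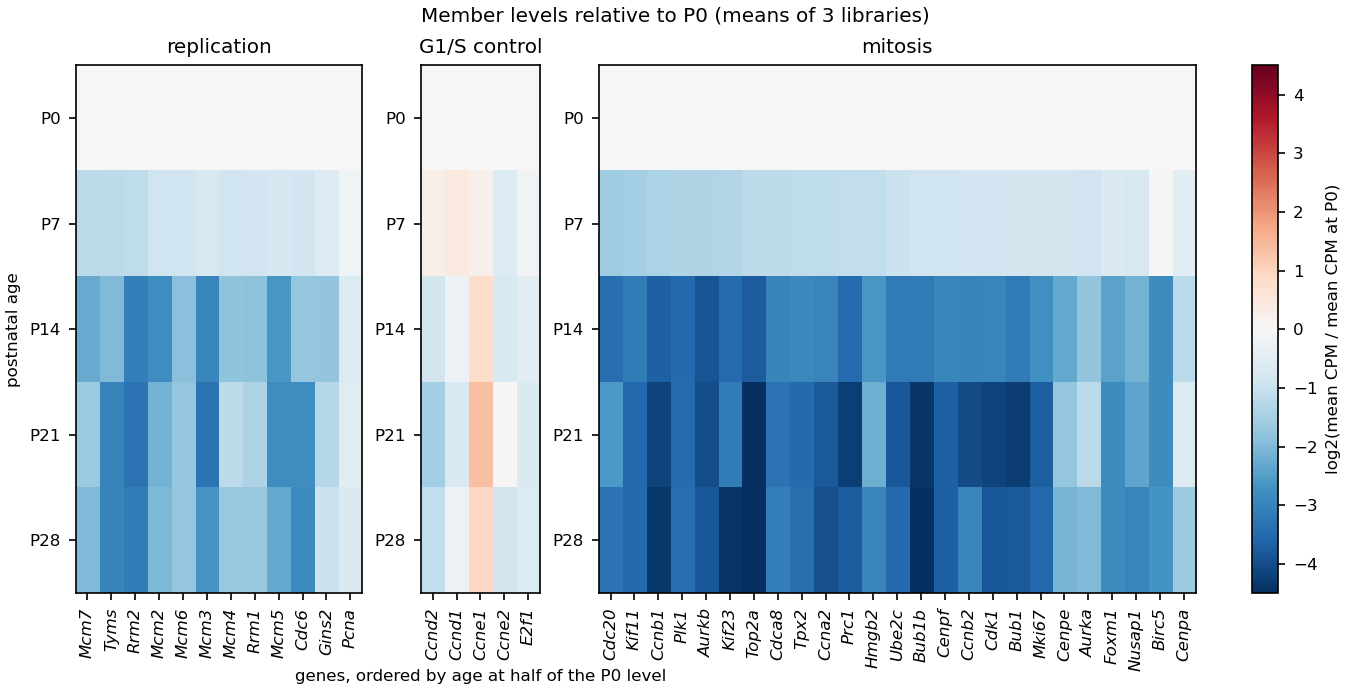
Level of each member at each age relative to P0, as log2 of the mean CPM over the mean CPM at P0 (3 libraries per age), by role, with genes ordered by the age at which they reached 50% of P0. Mitosis genes reached the darkest blue, Pcna and E2f1 stayed pale, and Ccne1 was above P0 from P7 on, with 193% of the P0 level at P28.

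The order of decline was described by the age at which the mean CPM, interpolated on a log2 scale between sampled ages, was at 50% of P0. That age was 7.09 days in the median for mitosis, reached by all 25 genes, and 7.87 days for replication, reached by 11 of 12. The ranges overlapped, from 4.37 days (Cdc20) to 11.9 days (Cenpa) in mitosis and from 5.82 days (Mcm7) to 9.47 days (Gins2) in replication. Medians lay at 6.46 to 7.47 days for mitosis and 7.48 to 7.88 days for replication when each library was left out in turn. With sampling every 7 days both medians lie next to a sampled age, and no test of their order was made.

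At P7 replication and mitosis genes stood at like shares of P0, below the G1/S genes, and differed more at P14. The median member was at 54.4% of P0 for replication and 51.0% for mitosis at P7, and above P0 for G1/S, while the median of tested genes with at least 1 CPM at P0 was 95.5%. By P14 the medians were 26.2%, 12.6% and 72.1% in the same order, and by P28 they were 24.8%, 8.80% and 65.8%. Within libraries the ratio of the mitosis sum to the replication sum was 1.16, 1.17 and 0.972 at P0, 0.979, 0.982 and 0.970 at P7, 0.521, 0.620 and 0.534 at P14, 0.393, 0.392 and 0.363 at P21, and 0.349, 0.368 and 0.385 at P28. P0 replicate 3 lay within the P7 range, and all libraries from P14 on were below both ages. At P14, 23 of 25 mitosis genes and 5 of 12 replication genes were below 25% of their P0 level. The same held for 527 of the 13791 tested genes with at least 1 CPM at P0.

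**Figure D3:**
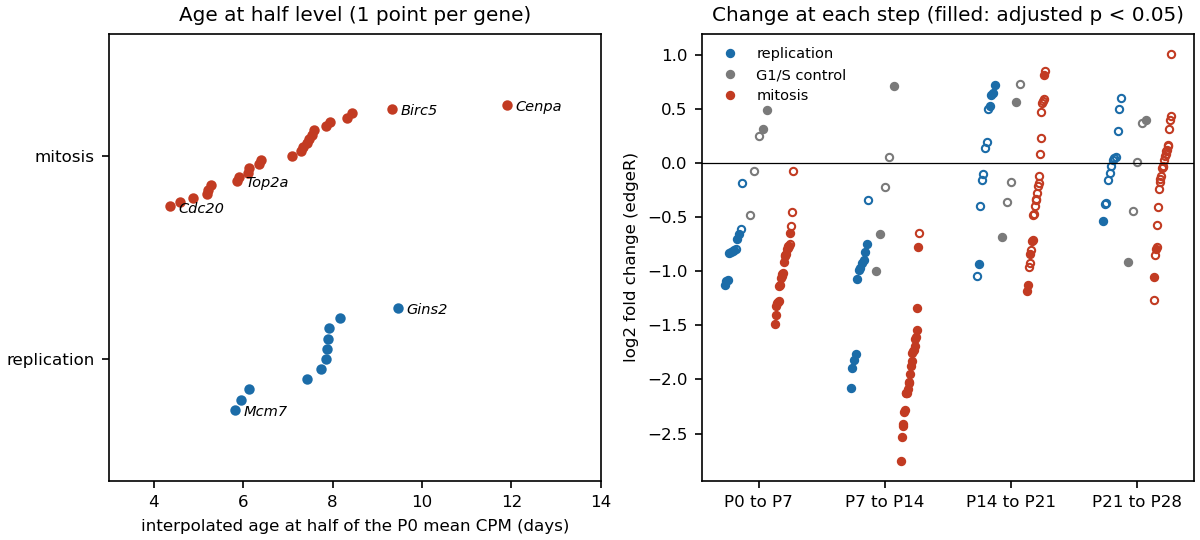
Interpolated age at which each replication and mitosis gene reached 50% of its mean P0 CPM (left; 1 point per gene; Pcna did not reach it), and the edgeR log2 fold change of each member at each step between sampled ages (right; filled points have an adjusted p under 0.05). Falls in the first week overlapped between roles, the deepest falls of the second week were in mitosis, and later steps scattered about 0.

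In the first week, 30 members fell and 2 rose, where 17.8% of all tested genes fell and 21.0% rose. By role, 9 of 12 replication genes fell (median log2 fold change -0.81), 21 of 25 mitosis genes fell (median -0.92) and 2 of 5 G1/S genes rose. Every P7 library was below every P0 library in 32 members and in 26.9% of tested genes. Cdc20, which activates the anaphase-promoting complex, was the steepest, at 17.1, 19.2 and 14.5 CPM at P0 and 4.45, 4.77 and 7.51 CPM at P7 (log2 fold change -1.48, SE 0.23, edgeR adjusted p = 6.23e-05). Kif11, a motor that separates the spindle poles, followed with -1.40 (SE 0.31). The replication genes Mcm7, Tyms and Rrm2 had changes of -1.13 (SE 0.16), -1.09 (SE 0.20) and -1.08 (SE 0.25).

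Birc5, which encodes survivin, was near its P0 level at P7 and fell in the second week. It measured 4.70, 5.96 and 5.48 CPM at P0, 5.49, 5.19 and 4.51 at P7, 0.716, 1.07 and 0.483 at P14, 0.754, 1.08 and 0.437 at P21, and 0.398, 0.966 and 1.14 at P28. P0 and P7 overlapped, with a log2 difference of -0.07 (SE 0.32, edgeR adjusted p = 0.880), and all later libraries were lower, with -2.75 from P7 to P14 (SE 0.39, edgeR adjusted p = 1.18e-05). Its complex partner Aurkb had already fallen by 1.29 (SE 0.29) at P7. The other mitosis genes that missed the threshold in the first week were Cenpa, Foxm1 and Bub1, of which Foxm1 passed it without P7 replicate 3 (edgeR adjusted p = 0.0139) and Bub1 with the 6 libraries of the 2 ages alone (edgeR adjusted p = 0.0290). Of the 32 calls at this step, 9 (Mcm3, Ccnd1, Ccnb2, Cdk1, Ube2c, Cenpe, Cenpf, Kif23 and Nusap1) were lost when 1 library was left out. For Kif23 and Ube2c that was P0 replicate 2, for Cenpf P0 or P7 replicate 2, for Ccnb2 P0 replicate 1 or 2 or P7 replicate 3, for Mcm3 any P0 or P7 library except P7 replicate 3, and for Cdk1, Cenpe and Nusap1 any P0 or P7 library. Mcm3, Cenpe and Nusap1 also crossed the threshold without some libraries of other ages, by a small margin. The same genes lost the call with DESeq2, and Mcm3 and Nusap1 also with the replicate block.

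In the second week, 36 members fell and 1 rose, where 20.5% of all tested genes fell and 21.7% rose. Mitosis genes fell in 24 of 25 cases with a median log2 fold change of -1.95, and replication genes in 10 of 12 cases with a median of -0.98. After Birc5 the steepest were Top2a at -2.53 (SE 0.24), Bub1, a spindle checkpoint kinase, at -2.43 (SE 0.42), and Aurkb at -2.41 (SE 0.37). Mcm3 (-2.08, SE 0.29), Rrm2 (-1.89, SE 0.28), Mcm2 (-1.82, SE 0.20) and Mcm5 (-1.76, SE 0.21) had changes of the size seen in mitosis, while Mcm4 (-0.82, SE 0.13), Mcm6 (-0.92, SE 0.14), Mcm7 (-0.99, SE 0.18) and Rrm1 (-0.90, SE 0.15) had smaller ones. The call of Gins2 at this step was lost without P7 replicate 1 or 3 or P14 replicate 3, and that of Aurka without P14 replicate 1 (edgeR adjusted p = 0.0599).

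After P14 the decline slowed, and 9 of the 12 calls from P14 to P21 were lost under some alternative fit. From P14 to P21, 6 members fell and 6 rose, where 10.6% of tested genes fell and 9.93% rose, so that these counts were near the background. Those that rose were Mcm2, Mcm4, Mcm7, Rrm1, Ccne1 and Cdc20, and those that fell were Tyms, Ccnd2, Mki67, Cdk1, Bub1b and the spindle midzone protein Prc1. Mcm4 measured 14.8, 13.3 and 15.6 CPM at P14, 23.3, 22.8 and 20.8 at P21, and 12.9, 15.9 and 18.1 at P28. All P21 libraries were above all of both neighbours, with a log2 fold change of 0.64 from P14 (SE 0.13, edgeR adjusted p = 0.00177) and -0.54 from P21 to P28 (SE 0.13, edgeR adjusted p = 0.0137).

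Mcm7 measured 12.9, 9.43 and 11.6 CPM at P14 and 15.9, 19.4 and 16.7 CPM at P21 (log2 fold change 0.63, SE 0.17), and Mcm2 measured 4.69, 3.86 and 4.59 CPM at P14 and 6.56, 8.44 and 6.26 CPM at P21 (0.72, SE 0.21). Groups did not overlap in either. Rrm1 changed by 0.53 (SE 0.14). The calls of Mcm2, Mcm7 and Ccne1 were lost without P21 replicate 2 (adjusted p of 0.113, 0.0804 and 0.0536), those of Rrm1 without P14 replicate 3 or P21 replicate 1, and that of Cdc20 under most alternatives (without P21 replicate 2, adjusted p = 0.240). Among the falls, the call of Bub1b was lost without P14 replicate 3, that of Prc1 without P14 replicate 1 or 2 or P21 replicate 1 or 3, that of Mki67 without P14 replicate 2 or 3 or P21 replicate 1 or 3, and that of Cdk1 without most P14 or P21 libraries and without P0 replicate 2 or 3. With the 6 libraries of these 2 ages alone, the calls of Mcm2, Bub1b, Prc1, Mki67, Cdk1 and Cdc20 were lost. The replicate block lost those of Cdk1 and Cdc20. The calls of Mcm4, Tyms and Ccnd2 were made under every alternative. Top2a, at -0.80 (SE 0.29, edgeR adjusted p = 0.0588), passed the threshold with total reads alone, the replicate block and DESeq2 and without P0 replicate 3 or P14 replicate 1. Over P21 replicates 1, 2 and 3 in that order, 6 choroid plexus and ependymal genes summed to 975, 57.2 and 37.3 CPM. Of the summed mean of 356 CPM at P21, the gene Ttr alone made up 303 CPM. Mcm4 was at 23.3, 22.8 and 20.8 CPM in the same libraries. The part of these cell types in the change of Mcm4 was not tested.

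In the opposite direction, Tyms measured 3.98, 4.07 and 4.51 CPM at P14 and 2.56, 2.07 and 1.601 CPM at P21, with no overlap (log2 fold change -0.94, SE 0.23, edgeR adjusted p = 0.00700). From P21 to P28, 4 members fell (Mcm4, Ccne2, Aurka and Cenpa) and 1 rose (Ccnd2), where 3.34% of tested genes fell and 4.49% rose. Of these 5 calls only that of Ccnd2 was made under every alternative. Cenpa measured 5.43, 3.81 and 5.68 CPM at P21 and 2.39, 2.01 and 2.88 CPM at P28, with no overlap (-1.05, SE 0.27), and its call was lost without P21 replicate 1 or 3 or P28 replicate 1 or 2. The call of Mcm4 was lost without P21 replicate 2 or P28 replicate 1. That of Aurka was lost when each P21 or P28 library was left out in turn, and with no filter or DESeq2. That of Ccne2 was lost without most P21 or P28 libraries. Both were also lost with the replicate block, with the 6 libraries of the 2 ages alone and without some libraries of other ages.

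**Figure D4:**
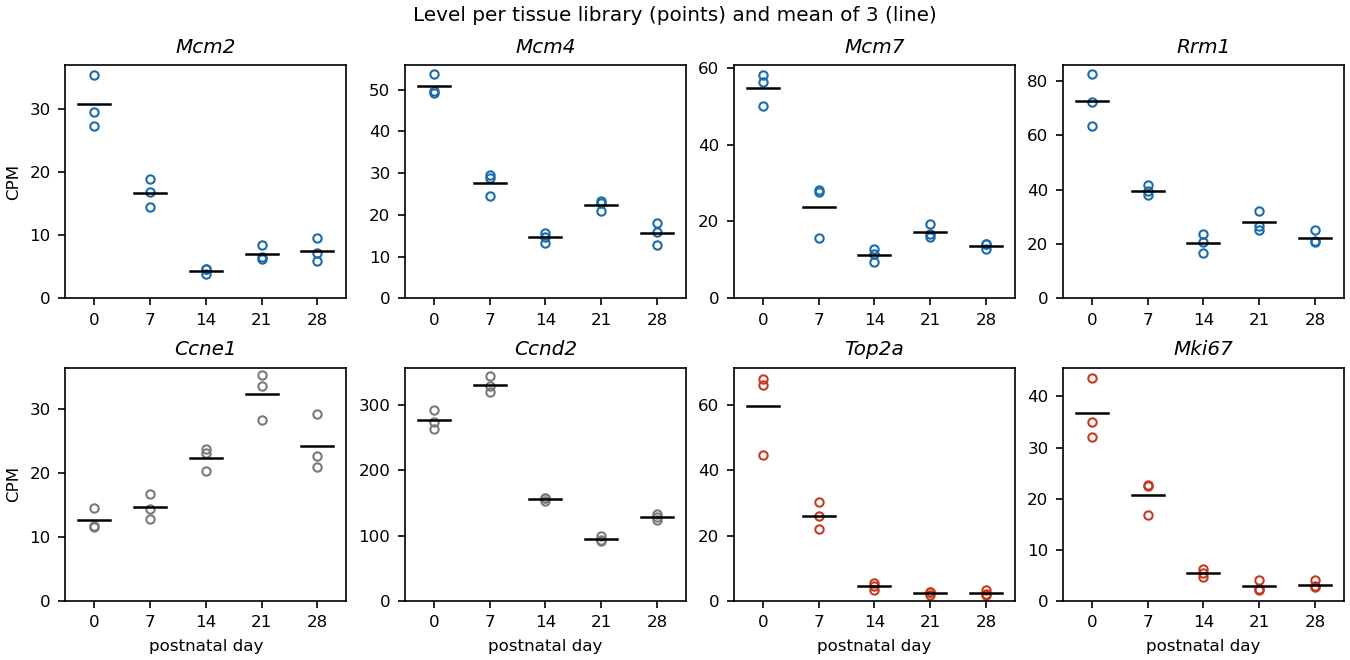
CPM of 8 members in each tissue library (points) by postnatal day, with the mean of 3 libraries as a line. Mcm2, Mcm4, Mcm7 and Rrm1 were higher at P21 than at P14, Ccne1 was highest at P21, Ccnd2 was highest at P7 and lowest at P21, and Top2a and Mki67 were low from P14 on. Of the rises from P14 to P21 shown, only that of Mcm4 was called under every alternative fit.

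Among the G1/S genes, the D cyclins that are members, Ccnd1 and Ccnd2, had their highest mean at P7 and their lowest at P21, and the others took other courses. Ccnd2, cyclin D2, measured 263, 292 and 274 CPM at P0, 345, 320 and 329 at P7, 157, 153 and 158 at P14, 91.2, 99.4 and 93.3 at P21, and 128.9, 123.3 and 132.5 at P28. No pair of ages overlapped. It rose to P7 (log2 fold change 0.32, SE 0.08), fell to P14 (-1.001, SE 0.08) and to P21 (-0.68, SE 0.08), and rose to P28 (0.40, SE 0.08, edgeR adjusted p = 0.00366). Ccnd1, cyclin D1, measured 28.6, 34.7 and 41.7 CPM at P0, 44.2, 44.0 and 55.6 at P7, 21.32, 30.4 and 35.1 at P14, 21.6, 21.34 and 22.6 at P21, and 31.6, 27.4 and 28.08 at P28. It fell from P7 to P14 (-0.66, SE 0.16, edgeR adjusted p = 0.00250), and the steps to P21 (-0.36, SE 0.16) and to P28 (0.37, SE 0.16) had the signs of those of Ccnd2 but did not pass the threshold. P0 and P28 overlapped (-0.16, SE 0.16, edgeR adjusted p = 0.390), and the rise to P7 (0.49, SE 0.16, edgeR adjusted p = 0.0220) was lost without P0 replicate 1 or 2 or P7 replicate 3.

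Ccne1, cyclin E1, which with CDK2 starts DNA synthesis, was the only member that rose from P0 to P28. It measured 11.5, 14.4 and 11.8 CPM at P0, 16.7, 12.9 and 14.4 at P7, 23.1, 20.4 and 23.7 at P14, 32.3 ± 3.66 at P21 (SD, n = 3), and 22.6, 29.2 and 20.9 at P28. All libraries from P14 on were above all earlier ones, with a log2 fold change from P0 to P28 of 1.08 (SE 0.16, edgeR adjusted p = 8.81e-06). The step from P7 to P14 was 0.71 (SE 0.16) and that from P14 to P21 was 0.56 (SE 0.15). Ccne2, cyclin E2, whose exons overlap Ints8 over 17.4% of their length, measured 7.26, 4.24 and 5.48 CPM at P0 and 3.98, 3.22 and 2.42 CPM at P28 (-0.61, SE 0.28, edgeR adjusted p = 0.0645). Its fall passed the threshold with total reads alone (adjusted p = 0.0222), without P0 replicate 2 (0.0328) and without P28 replicate 1 (0.0355). E2f1, the S-phase transcription factor, fell by 0.45 (SE 0.17, edgeR adjusted p = 0.0218), a call lost without P0 or P28 replicate 3.

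Other genes of the same processes were taken from lists written for this description with earlier results of these data known. Their counts are therefore no independent support. From P0 to P28, 31.3% of all tested genes fell and 32.9% rose. Of 43 other replication genes, 34 fell and 9 were not called (median log2 fold change -1.06, against -1.87 for the replication members). The range of called changes ran from Tk1, thymidine kinase 1, at -4.08 (SE 0.53), and Chaf1b, a histone chaperone of replication, at -3.77 (SE 0.38), to the origin recognition subunits Orc5 and Orc4 at -0.35 (SE 0.13) and -0.34 (SE 0.12). The calls of both were lost without P0 replicate 1, that of Orc4 also without P28 replicate 2 and that of Orc5 without P28 replicate 3. Tk1 was at 4.23 ± 0.847 CPM at P0, 3.73 ± 0.584 at P7 and 0.595 ± 0.312 at P14 (SD, n = 3), with a fall of 2.48 on the log2 scale in the second week and none called in the first. Of 51 other mitosis genes, 49 fell and 2 rose (median -2.67, against -3.27 for the mitosis members). Kif2c, a microtubule-depolymerising motor, and Ndc80, a kinetochore protein, fell by 4.49 (SE 0.42) and 4.24 (SE 0.53). The 2 that rose were Anln, anillin, at 1.08 (SE 0.16), and Cit, citron kinase, at 1.55 (SE 0.25), both proteins of cytokinesis, and both rose in the second week.

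Among 10 genes that restrain the cycle, 5 fell and 2 rose from P0 to P28 (median -0.52), where 31.3% of all tested genes fell and 32.9% rose. Cdkn1a, the CDK inhibitor p21, rose from 7.92 ± 0.573 CPM at P0 to 28.0 ± 4.72 at P7, fell to 17.7 ± 5.90 at P14, rose to 59.3 ± 10.8 at P21 and fell to 19.4 ± 3.96 at P28 (SD, n = 3). Its step to P21 was 1.73 on the log2 scale (edgeR adjusted p = 6.61e-06). Rbl1, the pocket protein p107, and the CDK inhibitor Cdkn2c fell by 2.48 (SE 0.27) and 1.22 (SE 0.26), and Cdkn2d changed by 0.24 (SE 0.10, edgeR adjusted p = 0.0424). The call of Cdkn2d was lost with total reads alone (0.09, adjusted p = 0.446), no filter, the replicate block and DESeq2, and without any P0 library, P28 replicate 1 or 2 or P7 replicate 3. Of 21 other control genes, 11 fell and 4 rose (median -0.38), against the same background. Mybl2 (B-Myb) and E2f7, a repressor of the E2F family, fell by 3.90 (SE 0.59) and 3.41 (SE 0.54), while Wee1, the kinase that holds CDK1 inactive, and Tfdp2, a partner of E2F factors, rose by 1.32 (SE 0.16) and 0.77 (SE 0.13).

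Markers of several cell types changed over the same ages. All 8 markers of intermediate progenitors and neuroblasts fell from P0 to P28, with a summed level of 1896 to 2312 CPM at P0 and 79.3 to 87.8 CPM at P28. Of 10 radial glia markers 8 fell and 1 rose, with sums of 875 to 998 CPM at P0, 643 to 716 at P7, 223.8 to 251 at P14 and 180 to 235.3 at P28. Markers of oligodendrocyte precursors took another course, with 5 of 7 higher at P28 and sums of 311 to 336 CPM at P0, 723 to 845 at P14 and 549 to 605 at P28. All 7 microglia markers rose, from sums of 132.4 to 136.7 CPM at P0 to 341 to 360 CPM at P28. In the first week, when Ccnd1 and Ccnd2 rose, all 5 fibroblast markers rose, and 3 of them fell in the second week, with sums of 65.3 to 188 CPM at P0, 439 to 610 at P7 and 219 to 233.6 at P14. Of 7 endothelial markers 6 rose in the first week, with sums of 143 to 155 CPM at P0 and 223.6 to 230 at P7. Of 6 choroid plexus and ependymal markers 4 rose and 1 fell, with sums of 19.3 to 32.8 CPM at P0 and 196 to 1408 at P7. Ttr made up 716 of the mean sum of 777 CPM at P7, while Foxj1 fell from a mean of 20.5 to 9.24 CPM. Of 3 erythroid markers 2 rose, with sums of 4.04 to 6.83 CPM at P0 and 12.8 to 19.3 at P7. None of these lists summed to 0 in any library, and the part of any of these cell types in the members' changes was not tested.

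Members were also read in single neurons, which as mature neurons do not divide. Each type counts as 1 sample with no test, since which animals the cells came from is not given in the labels, and intervals cover counting error only. Intervals on shares of cells treat the cells as independent draws, which they are not if several came from 1 animal. Members without a read in any cell numbered 10 in CCK, 22 in PV, 22 in CA1 pyramidal, 6 in burst and 5 in regular cells, where 3 reads are 0.0452, 0.0984, 0.0951, 0.137 and 0.182 CPM. The median number of genes read per cell was 6085, 4511, 2784, 9860 and 9703 in the same order. The share of all genes without a read is not given here, so the counts of unread members are not a result about the members. Cells of CA1 and of the subiculum were prepared with different kit versions, with a median of 3447 and 9801 genes per cell, so shares of cells are given side by side only.

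In over 50% of the 35 subiculum cells, reads were found for 5 members, Pcna, Ccnd2, Ccne1, Mcm7 and Ccnd1. Pcna was read in 32 of 35 cells (91.4%, exact 95% interval 76.9 to 98.2%), Ccnd2 in 31, Ccne1 in 27, Mcm7 in 21 and Ccnd1 in 18, while Mki67 and Rrm1 stood just below with 17 each. Pooled over these cells, levels were 51.5 CPM for Pcna, 83.8 for Ccnd2, 46.0 for Ccne1, 15.5 for Mcm7 and 21.4 for Ccnd1. In tissue of P28 the same genes had levels of 16.9 ± 0.571 CPM for Pcna, 123.3 to 132.5 CPM for Ccnd2, 24.2 ± 4.41 CPM for Ccne1, 13.7 ± 0.818 CPM for Mcm7 and 29.0 ± 2.27 CPM for Ccnd1 (SD, n = 3). The median log2 fold change in tissue from P0 to P28 was -0.54 for these 5 and -2.86 for the other 37, with ranges of -1.86 to 1.08 and -4.51 to -0.45 that overlap. The 5 were picked with their values known, and Ccnd1, Ccnd2 and Ccne1 among them are G1/S genes. This difference therefore cannot be told apart from that between roles, and it was not tested. The share of all genes read in over 50% of these cells is not given here.

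The 4 members with the largest falls in tissue, Top2a, Bub1b, Kif23 and Ccnb1, were each read in at most 2 of the 93 neurons. Top2a had 0 reads in 21 burst cells (exact 95% interval up to 16.1% of cells with a read), 9 reads in 1 of 14 regular cells and 1 read in the 58 CA1 cells. Bub1b was not read in any subiculum cell, and Kif23 and Ccnb1 were each read in 1 regular cell. Other mitosis genes with large falls were read more often, Ccna2 with 416 reads in 17 cells, Prc1 with 419 reads in 12 cells and Cenpf with 740 reads in 8 cells of the 93, with 62.0%, 60.1% and 83.6% of those reads from 1 cell in that order. Mki67 had reads in 12 of 21 burst cells (57.1%, exact 95% interval 34.0 to 78.2%) and 5 of 14 regular cells (35.7%, interval 12.8 to 64.9%). Its pooled level was 16.9 CPM in burst and 3.57 CPM in regular cells, and 1 cell held 48.5% of its reads in burst cells. In CA1 pyramidal cells Mki67 had 745 reads in 2 of 25 cells, 95.7% of them in 1 cell. Hmgb2, a chromatin protein that is also found outside mitosis, had reads in 16 of 35 subiculum and 14 of 58 CA1 cells.

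**Figure D5:**
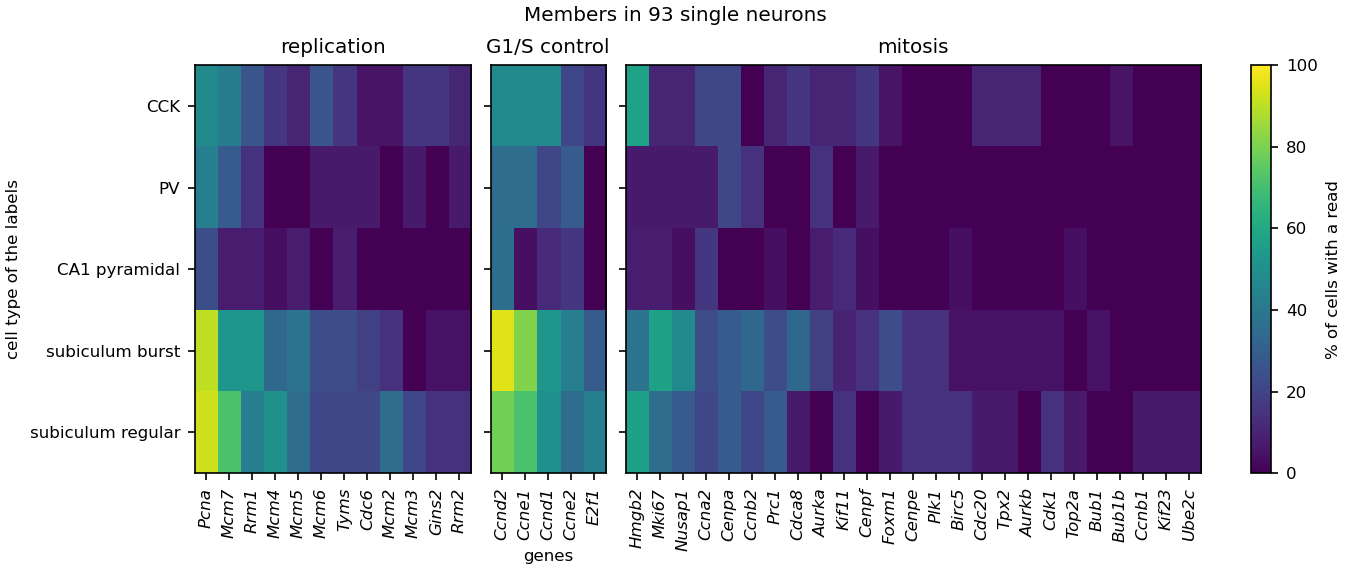
Share of cells with at least 1 read of each member in 5 neuron types (19 CCK, 14 PV, 25 CA1 pyramidal, 21 subiculum burst and 14 subiculum regular cells), by role, with genes ordered by their share over all 93 cells. Pcna and the cyclins Ccnd2 and Ccne1 were read in most subiculum cells, and most mitosis genes in few or none; CA1 cells used another kit version.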

How the data were processed

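Counts of reads per gene symbol were deposited by the authors without normalisation, in 1 table of 23337 genes and 92 spike-in rows, which were left out. Per the submitters' processing notes the tools were STAR, HTSeq, FastQC, Trim Galore and cutadapt, with hg19 and mm10 as builds; roles and versions are not given in the sources used here. Per the labels' protocols, the SMARTer kit was version 3 for CA1 cells and version 4 for subiculum cells and tissue, before Nextera tagmentation. Such reads carry no molecular identifiers, so intervals cover error in counting reads only, not molecules.

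Members and lists were chosen with earlier results of these data known. CPM used total gene reads. Differences used edgeR 4.0.16 in R 4.3.3 (filterByExpr, 14737 of 19485 genes with a read; TMM; robust quasi-likelihood fit of 15 libraries, common biological coefficient of variation 0.119). SE is the log2 fold change over the square root of F. The fits were tested on simulated data. Genes of other lists were named by the 2 largest and 2 smallest called changes of at least 1 CPM at the higher age. Motifs were searched in RefSeq promoters (GRCm38.p6), and exon lengths and overlaps come from GENCODE M21 (GRCm38). Alternatives were RLE scaling, total reads alone, no filter, DESeq2 1.42.0, only the 6 libraries of 2 ages, a replicate block, and each library left out.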

Additional observations from a re-analysis of the deposited data

How the results depend on the processing

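The direction of no member's called change was reversed under any alternative, and 38 of 40 calls between P0 and P28, 23 of 32 between P0 and P7, 35 of 37 between P7 and P14, 3 of 12 between P14 and P21 and 1 of 5 between P21 and P28 were made under all of them. Replicate numbers did not pair the samples: deviations of same-numbered libraries had a median correlation of -0.02, with 5 of 30 over 0.1. With the replicate block, 3 members were called and 2 fell between P21 and P28, as with the 6 libraries of the 2 ages alone, where 6 were called and 2 fell between P14 and P21. Leaving out each library gave 2 to 5 called and 1 to 4 falling between P21 and P28, 7 to 12 called, 3 to 6 falling and 3 to 6 rising between P14 and P21, and 1 to 2 rising between P0 and P7. Of the genes that restrain the cycle, 1 (Cdkn1a) rather than 2 (with Cdkn2d) rose between P0 and P28 with total reads alone, no filter, the replicate block or DESeq2, and 1 to 2 with a library left out. The cause was not tested. Scaling by total reads alone moved the median of all genes between P0 and P28 by -0.15 on the log2 scale, against a median change of -2.76 over the members. With TMM-scaled CPM the median age at 50% of P0 was 8.24 days for replication and 7.29 for mitosis. Late mitosis levels rest on few reads per library, which limits differences between P14, P21 and P28. Weighting cells equally moved 13 of 15 summed levels in neurons outside the interval of the pooled reads, which treats reads as independent counts.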
